A study of Mus musculus with 6 samples.

Results

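Cytosolic ribosomal proteins are the structural proteins of the ribosome outside mitochondria. They were taken here as every gene name on the array that starts with Rpl or Rps followed by a digit, plus Rplp0, Rplp1, Rplp2 and Rpsa, without the Rps6k kinases. This gave 132 names of the 31870 on the array. Of these, 128 were tested among 17818 tested genes. A gene was tested if the scanner program called its probe well above background in every sample of heart, of spleen or of both. The comparison set 3 arrays of heart myeloid cells (numbered 1, 2 and 4), sorted out of the infarcted left ventricle, against 3 arrays of spleen myeloid cells with the same numbers. All were wild-type C57BL/6N mice 3 days after acute myocardial infarction, so both groups share the infarct and no uninjured mouse was analysed here. The cells had been sorted as high for CD45 and CD11b and low for B220, CD90.2, NK-1.1, CD49b and Ly6G, which leaves monocytes, macrophages and other myeloid cells together. RNA (10 ng) was amplified in 1 round and labelled with a fluorescent dye. The labels do not say whether a heart and a spleen of the same number came from the same mouse, but numbers 1 and 2 share a date in both tissues and number 4 has a later one. Spleen 1 stood apart for lymphocyte and red cell markers. The linear levels of 7 B cell genes were summed and the log2 of the sum taken. It was 6.70 in spleen 1, 2.50 in spleen 2, 2.15 in spleen 4 and 1.40 to 1.59 in heart, although the sort selects against B cells.

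Each cytosolic ribosome has a small 40S subunit, which reads the messenger RNA, and a large 60S subunit, which joins the amino acids, and each core protein is needed in a single copy per ribosome apart from the stalk proteins. Their messenger RNAs are among the most abundant of any cell. In mammals most of them begin with a run of pyrimidines, the 5′ terminal oligopyrimidine (TOP) tract, through which Larp1 and the kinase mTOR control how well they are translated. Genomes also hold many processed pseudogenes of these genes, copies of the RNA inserted elsewhere, and a probe can match more than 1 of them.

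The starts of 6 genes are shown as examples, because the TOP tract is the sequence that these messenger RNAs share. Each is the 30 bases around the RefSeq start in GRCm38.p6, with the start after base 15 and the pyrimidine run, where there is one of 8 bases or more within 5 bases of the start, in capitals. They lie at chr4:86857353-86857382 on the minus strand (Rps6), chr7:141447636-141447665 on the plus strand (Rplp2), chr7:45128731-45128760 on the minus strand (Rpl13a), chr3:90213634-90213663 on the minus strand (Rps27), chr9:66946071-66946100 on the plus strand (Rps27l) and chr12:69184053-69184082 on the minus strand (Rpl36al).
Rps6: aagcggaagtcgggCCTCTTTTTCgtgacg
Rplp2: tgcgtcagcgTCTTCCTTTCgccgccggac
Rpl13a: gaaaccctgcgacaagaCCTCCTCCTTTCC
Rps27: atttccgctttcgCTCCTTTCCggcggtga
Rps27l: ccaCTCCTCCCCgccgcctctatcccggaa
Rpl36al: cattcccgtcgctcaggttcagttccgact
The run in Rpl13a goes on past the window and has 14 bases. Of the 76 core genes tested, 56 had a start in the RefSeq promoter table. Of these, 22 (39.3%) held such a run of C or T at 1 or more starts, on the strand that reads like the RNA. A run that ended before the RefSeq start, as in Rps27l, was counted too. Over all 27025 genes in that table the share was 11.4%. On the other strand the shares were 5.36% of the core genes and 12.6% of all genes. RefSeq starts can be several bases off, so a start with no run in this window says only that these letters are not there.

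The core ribosomal protein genes had nearly the same RNA level in heart and spleen myeloid cells. None of the 76 core genes passed the test, 30 of the small and 46 of the large subunit, and their fitted changes ran from -0.24 (Rpl3) to 0.30 (Rps24) on the log2 scale, heart minus spleen. The median change was 0.06. The probe taken for Rpl21 was dim, with means of -2.26 in heart and -2.07 in spleen. The probe named Rpl21-ps9 had means of 6.94 and 6.87. Whether the dim probe reports the Rpl21 messenger RNA was not tested. Among all 128 members, 1 was called (limma, Benjamini-Hochberg adjusted p under 0.05 over all genes tested), a share of 0.781%. Among all genes tested the share was 15.4%, with 8.87% higher and 6.49% lower in heart. At an unadjusted p under 0.05 the counts were 4 of 128 members (3.12%), 0 of the 76 core genes and 32% of all genes.

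The absence of calls did not come with wide errors. The 95% interval of the change lay within a 2-fold change (between -1 and 1 on the log2 scale) for all 76 core genes and for 121 of the 128 members (94.5%), against 44.5% of all genes tested. The median SE was 0.16 for the core genes and 0.26 for all genes. As most members are bright, genes with a mean level above 5, that is 5 log2 units over the 75th percentile of the array, were set beside them. Of those 1080 genes, 108 were members. In this range 9.26% of genes were called and 73% had an interval within a 2-fold change, while 0 of the 108 members were called and 108 had such an interval. The 95% interval lay within a 2-fold change for 62 of the 128 members when the slide was entered as a block, since only 1 slide carried both tissues. Without spleen 1 it was 125 of 128, with Rpl19-ps5 still the 1 member called.

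**Figure D1:**
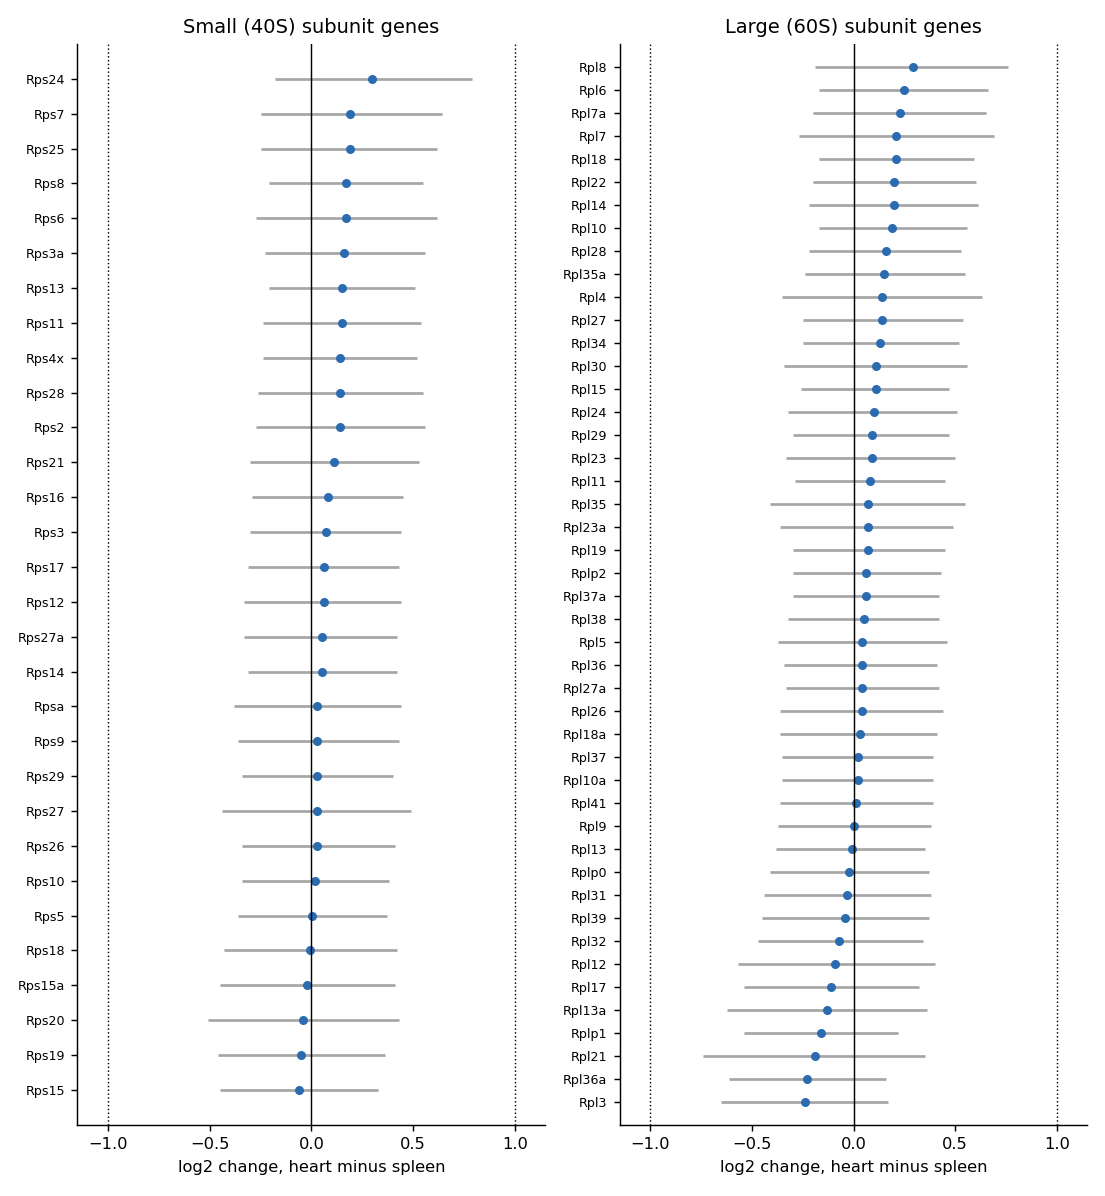
Fitted log2 change, heart minus spleen, of the 30 small subunit genes (left) and the 46 large subunit genes (right), ordered by the change, with 95% intervals from limma as bars. The dotted lines mark a 2-fold change in either direction, and all 76 intervals lie between them.

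**Figure D2:**
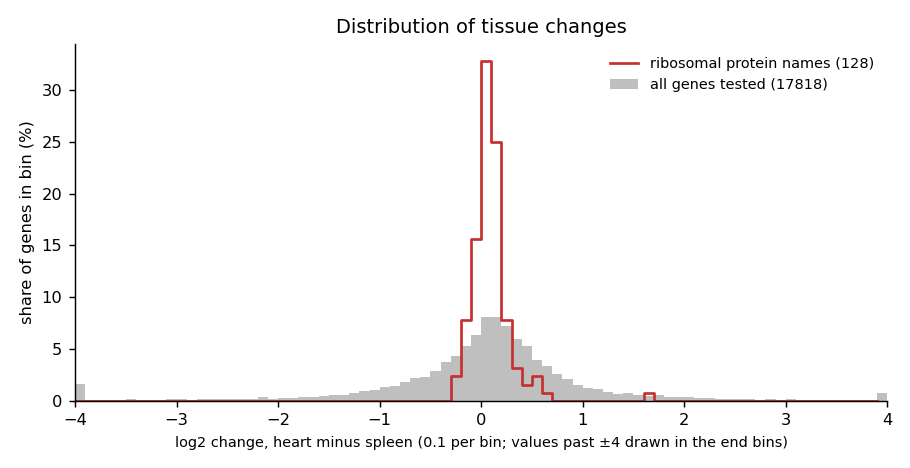
Share of genes in each bin of 0.1 log2 units of change, heart minus spleen, for all 17818 genes tested (grey) and the 128 ribosomal protein names (red line). The members are gathered near 0, with a median of 0.07 against 0.10 for all genes, and the lone bin on the right holds Rpl19-ps5 at 1.66.

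In the small subunit, the 14 tested genes of the head, which contacts the messenger RNA and the transfer RNAs, had a median change of 0.04 (range -0.06 to 0.19). The 16 tested genes of the body and platform had a median of 0.14 (range -0.02 to 0.30), and in 5 of the 16 the 3 heart arrays lay above the 3 spleen arrays, which was so for 24.5% of all genes tested. Rps23 has no member under this rule and was not analysed here. Rps24, a protein of the body, had the largest change of the core genes on the probe taken. The changes of its 3 tested probes ran from -0.18 to 0.30, so the sign for Rps24 depends on the probe. The levels that follow are those of the brightest probe. Rps24 was at 6.65, 6.77 and 7.21 in heart 1, 2 and 4, and at 6.61, 6.50 and 6.60 in spleen 1, 2 and 4. The heart arrays lay just above the spleen arrays, with heart 4 apart from the others, and the change of 0.30 ± 0.20 (SE, n = 3 per tissue) did not pass the test (limma adjusted p = 0.353). Rps6, the protein that S6 kinase phosphorylates, had levels of 6.42, 6.34 and 6.79 in heart and 6.32, 6.34 and 6.36 in spleen. These overlapped, and again heart 4 was the highest (change 0.17 ± 0.18 SE, limma adjusted p = 0.57). Rpsa, which is also known as the laminin receptor precursor, was at 6.55, 6.61 and 6.89 in heart and at 6.65, 6.69 and 6.61 in spleen, a change of 0.03 ± 0.17 (SE).

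Rps19 is the gene most often mutated in Diamond-Blackfan anaemia, an inherited failure of red cell production caused by the loss of 1 copy of a ribosomal protein gene. It was at 6.41, 6.39 and 6.55 in heart and 6.68, 6.37 and 6.46 in spleen, with a change of -0.05 (95% interval -0.46 to 0.36). The tissues overlapped. All 19 genes of the list for that disease were tested, 0 were called, and their changes ran from -0.05 to 0.30 with a median of 0.06.

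In the large subunit, the 3 stalk proteins that recruit translation factors had small fitted changes. Rplp0, the base of the stalk, was at 7.16, 7.12 and 7.26 in heart and 7.13, 7.34 and 7.14 in spleen. Rplp1 was at 6.85, 6.80 and 6.86 in heart and 7.05, 6.88 and 7.06 in spleen. Its partner Rplp2 was at 7.63, 7.66 and 7.69 in heart and 7.55, 7.67 and 7.58 in spleen. Only for Rplp1 did the tissues not overlap, with heart the lower, and the changes were -0.02 ± 0.16 (SE), -0.16 ± 0.16 (SE) and 0.06 ± 0.15 (SE) in that order, none past the test. Rpl5 and Rpl11 form a particle with the 5S RNA and, when free, bind the p53 regulator Mdm2. Rpl5 was at 5.24, 5.28 and 5.48 in heart and 5.28, 5.15 and 5.43 in spleen. Rpl11 was at 7.05, 6.99 and 7.11 in heart and 6.93, 7.05 and 6.93 in spleen. The tissues overlapped for both, with changes of 0.04 ± 0.17 (SE) and 0.08 ± 0.15 (SE). The 11 genes at the exit tunnel and its rim, where the new protein leaves, had a median of 0.05 (range -0.11 to 0.20).

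Rpl13a, which in interferon-treated monocytes leaves the ribosome to block the translation of inflammatory messenger RNAs, was at 5.50, 5.49 and 5.99 in heart and 5.87, 5.70 and 5.81 in spleen. Heart 4 was again the highest array and the tissues overlapped (change -0.13 ± 0.20 SE, limma adjusted p = 0.702). The members whose 3 heart arrays lay below all 3 spleen arrays were Rpl3, Rpl36a and Rplp1. Rpl3, which reaches toward the site of peptide bond formation, was at 5.51, 5.40 and 5.49 in heart and 5.87, 5.52 and 5.72 in spleen, a change of -0.24 ± 0.17 (SE). Rpl36a, a protein near the exit site of transfer RNA, was at 5.84, 5.65 and 5.84 in heart and 6.08, 6.00 and 5.94 in spleen, a change of -0.23 ± 0.16 (SE). Neither passed the test (limma adjusted p = 0.386 and 0.378). In the other direction, 23 members had all heart arrays above all spleen arrays. Together these are 26 of 128 members (20.3%), against 41% of all genes tested, of which 24.5% were higher and 16.5% lower in heart.

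The arrays of a tissue were also alike for these genes. The median SD over the 3 arrays was 0.11 in heart and 0.11 in spleen for the members. For all genes it was 0.15 in heart and 0.40 in spleen. The spleen SD exceeded the heart SD in 64 of 128 members (50%) and in 83.3% of all genes. Among genes with a mean level above 5, the median spleen SD was 0.09 for the 108 members and 0.21 for the 972 other genes, and the median heart SD was 0.11 for both. The spleen arrays therefore differed from each other over much of the array, and the levels of ribosomal protein genes did not spread with them.

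**Figure D3:**
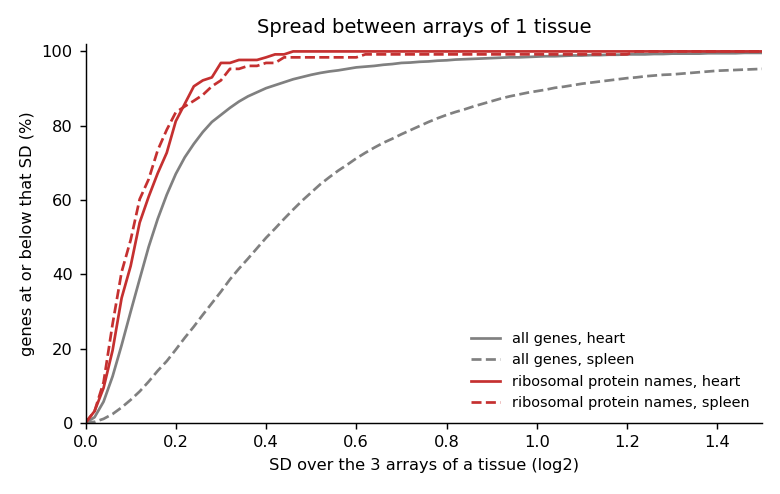
Share of genes at or below each SD over the 3 arrays of a tissue, for all genes tested (grey) and the 128 ribosomal protein names (red), with heart as solid and spleen as dashed lines. The members' curves lie together (median SD 0.11 in both tissues), while that of all genes is shifted to the right in spleen (0.40 against 0.15 in heart).

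Of the 6 arrays, heart 4 was the highest for 67 of the 128 members (52.3%), against 15.5% of all genes tested. Among the genes with a mean level above 5, heart 4 was the highest for 62 of the 108 members (57.4%) and for 50.1% of all 1080. The mean level over the members was 5.78, 5.72 and 5.90 in heart 1, 2 and 4, and 5.69, 5.67 and 5.76 in spleen 1, 2 and 4. Heart 1 and spleen 4 were on the same slide, and their means (5.78 and 5.76) differed by less than the means of the 3 heart arrays did. In both tissues the array with the later date, number 4, had the highest mean and number 2 the lowest. With the date as a block the median change of the members was 0.07, as without it, and 120 of 128 intervals lay within a 2-fold change. Without heart 4 the median was 0.03.

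The sign of these small changes depended on how the arrays were scaled. With the 75th percentile, 59 of 76 core genes had a fitted change above 0. Quantile scaling gave 11 of 76 and a median of -0.10, scaling to the array median gave 71 and 0.17, and cyclic loess gave 0 and -0.30. The 972 other genes with a mean level above 5 moved the same way between these settings, with medians of 0.16, -0.07, 0.27 and -0.17 in that order. No direction is therefore given for the group. No core gene was called under any of these scalings, and Rpl19-ps5 was the 1 member called under each.

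**Figure D4:**
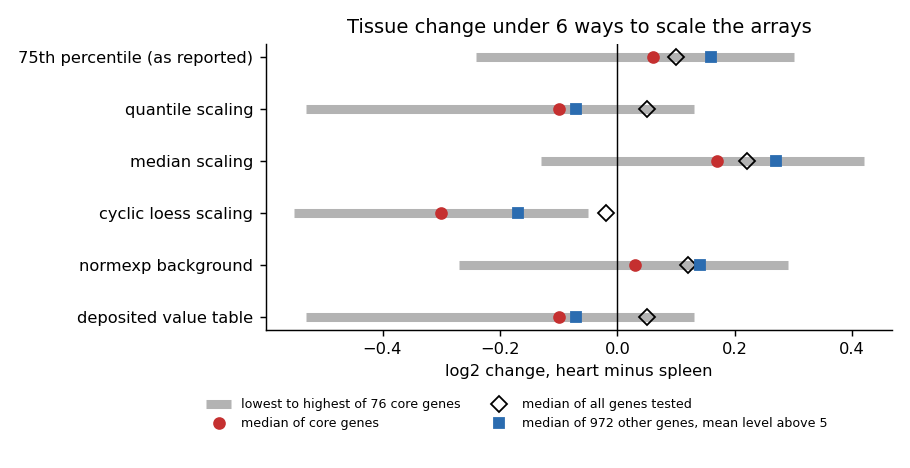
Median log2 change, heart minus spleen, of the 76 core genes (red), all genes tested (open diamonds) and the 972 other genes with a mean level above 5 (blue) under 6 ways to scale or correct the arrays, with the range of the core genes as grey bars. The core median runs from -0.30 (cyclic loess) to 0.17 (scaling to the array median) and lies below the median of all genes in each setting.

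The 1 called member, Rpl19-ps5, carries the name of a pseudogene of Rpl19, a large subunit protein. Its levels were -2.60, -2.16 and -1.94 in heart 1, 2 and 4, and -4.25, -3.70 and -3.74 in spleen 1, 2 and 4. The tissues did not overlap, and heart was higher by 1.66 ± 0.26 (SE, 95% interval 1.04 to 2.28, limma adjusted p = 0.0128). The call ended with the slide as a block (change 1.14, limma adjusted p = 0.275), without heart 2 (1.62, adjusted p = 0.069) and without heart 4 (1.51, adjusted p = 0.0631). Rpl19 itself was at 7.06, 7.03 and 7.15 in heart and 6.98, 6.95 and 7.10 in spleen, a change of 0.07 ± 0.16 (SE).

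The probe of Rpl19-ps5 lies at chr14:121113011-121113070 in mm9. The first 30 of its 60 bases are shown with those of the Rpl19 probe, since the name implies a likeness.
Rpl19-ps5: gaaacaactcccttcacaatagccacatat
Rpl19: taaggaagaggaagggtactgccaatgctc
The longest run of bases common to the whole probes was 6, and no other of the 39428 probes compared shared a run of 20 bases with the Rpl19-ps5 probe on either strand. The value is that of this probe. Probes were compared only with each other, so whether this probe also detects Rpl19 RNA was not tested.

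Most pseudogene names had changes close to those of the functional genes. Of 47 names, 44 were tested, with a median change of 0.07, and for 40 of the 44 the change was within 0.3 of that of the parent gene. The core changes themselves ran only from -0.24 to 0.30. Such closeness could thus be met with almost any core gene and does not tie a copy to its parent. For 10 of the 44, the probe shared a run of at least 20 bases with a probe of the parent. A pair of such runs is shown, cut to 30 bases, in capitals because every base is shared.
Rpl10a-ps1: GCAAGCCCCAGCGTCTGTATTAGGATGCTC
Rpl14-ps1: TGGCAAGAAAGCGTGAGGCTACACAGAATA
The whole shared run has 54 bases for Rpl10a-ps1 and 35 for Rpl14-ps1. In mm9, the Rpl10a-ps1 probe lies at chr17:28467923-28467982 and that of Rpl10a at chr17:28467917-28467976, so these probes overlap on the chromosome. Such probes cannot tell the copy from the gene, and their changes (-0.0017 for Rpl10a-ps1, 0.02 for Rpl10a) are not separate measurements. Rpl14-ps1, on chromosome 7, was at 6.01, 6.02 and 6.41 in heart and 5.99, 5.83 and 5.60 in spleen, a change of 0.34 ± 0.20 (SE) that did not pass the test. Rpl7a-ps5 was at 6.59, 6.51 and 6.56 in heart and 6.05, 6.19 and 6.41 in spleen, with the same change of 0.34 and an SE of 0.17. The parents Rpl14 and Rpl7a had changes of 0.20 and 0.23. With quantile scaling the change was 0.12 for both Rpl14-ps1 and Rpl7a-ps5. With cyclic loess it was 0.01 for Rpl14-ps1 and -0.0039 for Rpl7a-ps5. In the array's coordinates, the probe of a core gene lay on another chromosome than the gene for 3 of 75 genes, namely Rps27 (9, gene on 3), Rps29 (2, gene on 12) and Rps4x (3, gene on X).

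Paralogs are separate genes that encode variants of a core protein. Of 8, 7 were tested and 0 called, with a median change of 0.46 (range -0.05 to 0.66), and only 2 of the 7 had a 95% interval within a 2-fold change. Rps27l, a paralog of Rps27 that p53 induces, was at 5.07, 4.97 and 5.24 in heart and 3.96, 4.55 and 4.81 in spleen. The tissues did not overlap, with spleen 1 the lowest array, and the change was 0.66 ± 0.26 (SE, limma adjusted p = 0.137). It was 0.42 without spleen 1, 0.25 with quantile scaling, 0.38 with cyclic loess and 0.26 with the slide as a block or with the deposited value table. Its parent Rps27 was at 7.35, 7.20 and 7.21 in heart and 7.36, 6.93 and 7.40 in spleen. Rpl36al, a paralog of Rpl36a, was at 5.18, 4.79 and 5.23 in heart and 4.10, 4.54 and 4.96 in spleen, a change of 0.53 ± 0.27 (SE, limma adjusted p = 0.233) with tissues that overlapped. It was 0.31 without spleen 1, 0.13 with quantile scaling, 0.25 with cyclic loess, 0.14 with the deposited table and 0.22 with the slide as a block.

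The change of each paralog was then set against that of its parent within each array, for 7 pairs. The difference between heart and spleen was 0.76 log2 units for Rpl36al over Rpl36a and 0.63 for Rps27l over Rps27, and in these pairs the tissues did not overlap. The two-sided exact permutation test gave p = 0.1 for both, the smallest that 3 against 3 arrays allow, and 0.35 after adjustment over the 7 pairs. The tissues overlapped in the other 5 pairs, for which the differences ran from -0.25 (Rpl22l1 over Rpl22) to 0.66 (Rpl3l over Rpl3). The -0.25 used the brighter of the 2 Rpl22 probes, with a change of 0.20. The other Rpl22 probe gave -0.90, so the sign for this pair depends on the probe. In the array's coordinates, the probes of the parents Rps27 and Rps4x lay on another chromosome than the gene. No pair of a paralog and its parent had probes that shared a run of more than 7 bases.

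Rpl7l1, a paralog of Rpl7, was at 0.01, -0.22 and -0.06 in heart and -0.76, -0.42 and -0.48 in spleen, a change of 0.46 ± 0.18 (SE) with no overlap (limma adjusted p = 0.132). The probe named Rps4y2, which RefSeq now calls Rps4l, a paralog of Rps4x, was at 1.46, 0.91 and 1.07 in heart and 0.18, 0.96 and 0.59 in spleen. Rpl3l, the form of Rpl3 that replaces it in heart and skeletal muscle, was at -2.57, -3.28 and -3.21 in heart and -4.47, -3.74 and -2.10 in spleen. The spleen arrays enclosed the heart arrays for Rpl3l, and its interval was the widest of the members (-1.03 to 1.87). Rpl39l, which is known from testis, was at -1.84, -1.29 and -2.09 in heart and -2.65, -1.46 and -2.20 in spleen. Rpl22l1, whose RNA Rpl22 represses, was at 4.46, 4.40 and 4.53 in heart and 4.85, 4.43 and 4.27 in spleen, and these tissues overlapped, as did those of Rps4y2 and Rpl39l. Rpl10l, another testis form, stayed at background level on all 6 arrays and was not tested, like the pseudogene names Rpl17-ps2 and Rpl36a-ps2, while Rpl19-ps4 was above background on 1 spleen array and was not tested either.

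Rps19bp1 carries the name of Rps19 but encodes a protein that binds it and also the deacetylase Sirt1. It was at 2.14, 1.94 and 2.11 in heart and 1.30, 1.48 and 1.65 in spleen. The tissues did not overlap, and the change of 0.59 ± 0.18 (SE, 95% interval 0.17 to 1.01) missed the threshold (limma adjusted p = 0.0728). It passed without spleen 4 (0.68, limma adjusted p = 0.0401), the only setting in which a member other than Rpl19-ps5 was called.

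**Figure D5:**
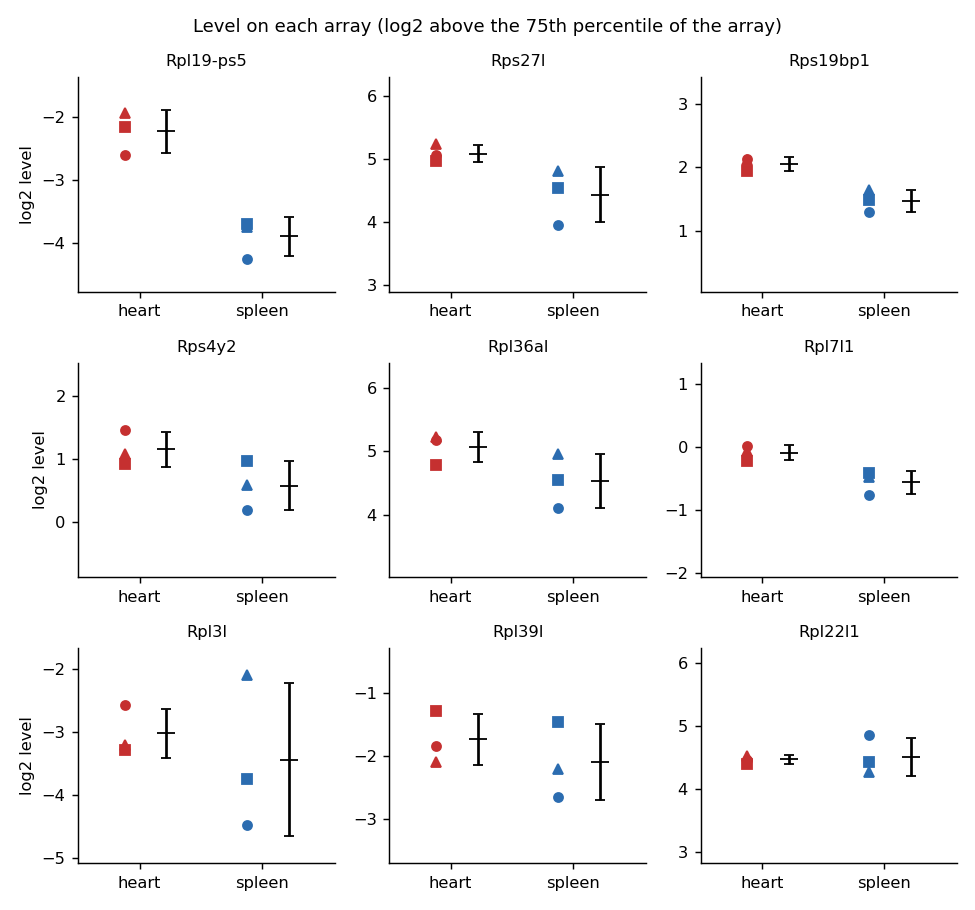
Level on each array, in log2 units above the 75th percentile of the array, for Rpl19-ps5, the 7 tested paralogs and Rps19bp1, with circles for number 1, squares for number 2 and triangles for number 4 (heart red, spleen blue) and the mean ± SD of the 3 arrays beside them. Each panel spans the same 3.4 log2 units; for Rpl19-ps5, Rps27l, Rps19bp1 and Rpl7l1 the heart points lie above all spleen points.

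Probes of the same member mostly gave similar changes. Of 55 members with more than 1 tested probe, 53 had probe changes within 0.5 of each other, and the median range was 0.13. The exceptions were Rpl22, whose 2 probes gave -0.90 and 0.20, and Rps27a, the fusion with ubiquitin, whose 3 probes ran from -0.57 to 0.17. Over the 218 tested probes of members, 1 was called (0.459%), against 15% of all tested probes.

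Genes that build, drive or regulate ribosomes were described beside them. In 6 lists of elongation and initiation factors, assembly factors, RNA polymerase I and regulators, 111 genes were tested and 11 were called (9.91%), each of them higher in heart, against 8.87% of all genes tested that were called higher and 15.4% called in either direction. The share is near that of all genes, and whether it differs from that of the ribosomal proteins was not tested. Of 3 ribosomal proteins tested under other names, 0 were called. Of the 79 mitochondrial ribosomal protein names, 77 were tested, 3 were called higher and 3 lower (7.79%), and 80.5% had an interval within a 2-fold change.

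Of 22 tested initiation factors outside eIF3, 5 (22.7%) were higher in heart, against 8.87% of all genes, and 0 were lower. The median change was 0.49, against 0.10 over all genes. Eif4e, which binds the cap of messenger RNA, was at 3.53, 3.34 and 3.35 in heart and 2.02, 2.23 and 2.09 in spleen. The tissues lay well apart, with a change of 1.29 ± 0.16 (SE, limma adjusted p = 0.00718). Eif4a1, the helicase of the same complex, was at 5.30, 5.31 and 5.35 in heart and 3.86, 4.07 and 4.35 in spleen, a change of 1.23 ± 0.19 (SE, limma adjusted p = 0.0122). Eif2s1, the alpha subunit of eIF2 and target of the stress kinases, was higher by 0.94 ± 0.16 (SE, limma adjusted p = 0.0176). Pabpc1, the poly(A)-binding protein and the brightest of this list not called, was at 5.90, 6.00 and 6.09 in heart and 5.85, 6.03 and 6.17 in spleen, a change of -0.02.

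The remaining lists had 1 or 2 calls each, in shares of 5.13% to 12.5%, on either side of the 8.87% of all genes called higher. Of 13 eIF3 subunits, Eif3j1 alone was called, with a mean level over 3 arrays of 1.06 (SD 0.06) in heart, a mean of 0.09 (SD 0.17) in spleen, and a change of 0.97 ± 0.17 (SE, limma adjusted p = 0.0176). The median of the list was 0.21, and Eif3h, the brightest subunit not called, had a fitted change of 0.05. In the elongation factor list of 8 names, only Eef1e1 was called (1.06 ± 0.24 SE, limma adjusted p = 0.0328). Eef1e1 is in the list by its name but is a part of the multi-synthetase complex, and none of the other listed genes was called. Tpt1, a TOP messenger RNA that is regulated like those of ribosomal proteins, was at 7.94, 7.94 and 7.87 in heart and 7.71, 7.82 and 7.91 in spleen, and these overlapped.

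Of 39 tested assembly factors, 2 were called and the median was 0.50. Rrp1b, a nucleolar protein, was higher by 1.12 ± 0.21 (SE, limma adjusted p = 0.0213) and Nop16 by 0.88 ± 0.18 (SE, limma adjusted p = 0.0266), whereas Npm1, nucleophosmin, had a change of -0.18. Among RNA polymerase I and its factors, 1 of 14 was called. This was Ubtf, which opens the ribosomal DNA for transcription, at 7.37, 7.43 and 7.37 in heart and 6.01, 6.33 and 6.69 in spleen (change 1.05 ± 0.21 SE, limma adjusted p = 0.0258). Polr1d, a subunit of the enzyme, had a change of 0.20.

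Of 15 tested regulators of ribosomal protein synthesis, 1 was called. Rheb, the small GTPase that activates mTOR, was higher by 0.89 ± 0.23 (SE, limma adjusted p = 0.0466). Mtor was at -2.03, -1.94 and -1.90 in heart and -1.82, -2.33 and -2.52 in spleen, a change of 0.27 ± 0.22 (SE). Larp1 was at 3.94, 3.88 and 3.98 in heart and 3.43, 3.79 and 3.76 in spleen, and its change of 0.27 ± 0.18 (SE) did not pass the test. Myc, a driver of ribosomal gene transcription, was at 0.27, 0.29 and 0.02 in heart and at 1.87 and -0.93 in spleen 1 and 2. Its spot on spleen 4 was marked as an outlier by the scanner program, so the fit used 5 arrays, and the 2 spleen values lay on either side of the heart values (change -0.28 ± 0.80 SE).

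The number of these calls moved with the arrays in the fit. The 11 calls became 0 without heart 1, 1 without heart 2, 1 without heart 4, 27 without spleen 1 and 20 without spleen 4. Leaving out any heart array lowered the calls over all genes too, from 2736 to between 454 and 545, and the change of Eif4a1 was then 1.24, 1.23 and 1.21 without heart 1, 2 and 4. They became 0 with the slide as a block, 7 with quantile scaling, 6 with the deposited value table and 5 with no filter on dim probes. Eif4e was called in 18 of 21 settings, Eif4a1 in 17, Rrp1b and Eif3j1 in 16, Nop16 in 14, Eif2s1 and Ubtf in 13, Eef1e1 in 11 and Rheb in 10. With all tested probes of a gene averaged, Eif2s1 was no longer called (0.72, limma adjusted p = 0.133). The change of Ubtf was then 0.69 and still called (limma adjusted p = 0.037).

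On each array, 52.8% to 63.7% of probes were well above background, and the 75th percentile lay between 1557 and 1989 intensity units. No spot was saturated, and the brightest member reached 54.4% of the saturation value. Markers of other cells differed between the tissues. Of 10 neutrophil genes, 7 were lower in heart, with a summed level of 6.02 to 6.28 in heart and 9.08 to 10.2 in spleen on the log2 scale, and of 12 genes of dividing cells, 9 were lower and 1 was higher, with sums of 3.84 to 3.93 in heart and 4.49 to 7.33 in spleen. Of 5 granulocyte precursor genes, 4 were lower, with sums of 2.79 to 2.87 in heart and 4.01 to 7.74 in spleen. All 5 tested fibroblast genes of 8 were higher in heart, with sums of 0.88 to 2.38 against -3.08 to -2.50, and so were 4 of 9 tested cardiomyocyte genes, with sums of -0.15 to 0.69 against -1.11 to -0.64. Col1a1, Col3a1, Dcn, Mgp, Actc1, Mb, Myh6 and Myl2 met the filter for testing through the heart arrays only. Ngp, Cxcr2, Ms4a3, Top2a, Cdk1 and Aurkb met it through the spleen arrays only. A gene let in by 1 tissue could hardly be called higher in the other, so these counts by direction were partly fixed by the filter. The sums also hold probes that were not well above background. Of the B cell, T and NK cell and erythroid lists, 0 of 5, 0 of 5 and 0 of 4 tested genes were called, but their levels differed between the spleen arrays. The T and NK cell sum was 5.64 in spleen 1, 1.21 in spleen 2 and 0.62 in spleen 4, against -0.11 to -0.01 in heart. The erythroid sum was 6.99, 4.07 and 2.82 in spleen 1, 2 and 4, and 2.95 to 5.19 in heart. In each of the fibroblast and cardiomyocyte lists, 1 gene stayed at background level throughout. Of 8 myeloid markers, all were tested and 0 were called. In sorted populations of this kind, a lower share of a cell type and less RNA per cell cannot be told apart, and the part of these markers in the results above was not tested.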

How the data were processed

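RNA of 6 samples was measured on single-colour Agilent arrays. The deposited scanner files hold linear intensity values per spot, obtained by the authors through Agilent Feature Extraction (version 10.7.3.1, per the submitters' processing notes), with the background already corrected per the file headers. The deposited value table holds log2 values, and array-to-array differences in it followed those after quantile normalization of the scanner signals (r 0.9998 to 1 over 15 pairs of arrays and 19324 probes). The median of each of its columns was 0, and the baseline subtracted per probe is unknown, which limits it to use as an alternative.

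Control and outlier spots were left out, log2 of the processed signal was taken minus the array's 75th percentile, and spots of a probe were averaged. A gene took its probe with the highest mean level. Probes carry the files' gene names, which can be old, and mm9 coordinates. Genes were tested with limma 3.58.1 (lmFit and eBayes, two-sided) in R 4.3.3 on all 6 arrays, with Benjamini-Hochberg adjustment over 17818 genes. The fit was tested on simulated data. A 95% interval and the SE of a change are those of the moderated fit, which draws the variance of each gene toward a common value. Such an SE can be larger than that of the gene's own values alone. Sequences are the array's probes and RefSeq start regions (GRCm38.p6).

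The genes named are up to 12 called members in each direction, filled to 6 with members of no overlap where fewer were called, the stalk, Rpsa, Rps6, Rpl5, Rpl11, Rpl13a, Rps19, the paralogs, Rps19bp1, and, from each translation list, the 3 called genes with the largest change and the brightest not called, with Myc and Mtor. Rps24, Rpl19, Rpl22, Rps27, Rps27a, Rpl10a-ps1 and Larp1 were added for comparison or by this rule, and parents of named copies beside them. Of the genes so picked, 1 is not reported here. Members, lists and tests were chosen with earlier results of these data known. P-values measure the spread between these samples only, and the small number of arrays limits their precision.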

Additional observations from a re-analysis of the deposited data

How the results depend on the processing

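The median change of the members was 0.07, and became -0.10 with quantile scaling, 0.18 with median scaling, -0.27 with cyclic loess and -0.10 with the deposited value table. With 1 array left out it ran from 0.03 to 0.10. Members called higher numbered 1, and 0 with the slide as a fixed block; with 1 array left out they numbered 0 (without heart 2 or heart 4) to 2 (without spleen 4). Members called lower numbered 0 in each setting. All genes called, 2736, became 1516 with no filter on dim probes and 51 with the slide as a fixed block, and ran from 454 (without heart 1) through 478 (without heart 2) and 545 (without heart 4) to 4211 (without spleen 4). Calls in the translation lists, 11, became 7 with quantile scaling, 5 with no filter, 6 with the deposited table and 0 with the slide as a fixed block, and ran from 0 to 27 with 1 array left out, settings added for these lists after the data were seen. Myc, with no usable spot on spleen 4, went from -0.28 to 1.13 without spleen 1 and to -1.68 without spleen 2. Each rests on 1 spleen array, so no p is given and neither is read as a call. The cause of these differences was not tested.

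Same-numbered heart and spleen arrays did not deviate together across genes (correlations of -0.08, 0.07 and 0.0048). So few arrays per tissue cannot tell from this whether the numbers mark the same mouse. The labels do not say it either, and the numbers were not used as pairs. When the date was a block, 2462 genes and 10 translation list genes were called. With the replicate number as a block, 1556 genes and 2 translation list genes were called, and the 1 called member stayed called. Over the named genes and alternatives, 63 of 798 values lost the call. The sign differed from that reported in 55 values, of 17 of the 40 named genes, and in 0 values of the 10 named genes that were called. Depth for arrays means signal over background, and 126 of the 128 members were well above background on all 6 arrays.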
